A study of Danio rerio with 4 samples.

Results

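The A-type apolipoprotein genes of the zebrafish were examined in fasted larval livers of a mutant in pex5, the gene of the import receptor that carries proteins into peroxisomes. Of the 16405 genes with a deposited value, 7 were members, chosen by their symbols: apoa2, apoa1b, apoa1a, apoa4a and the 3 neighbouring genes apoa4b.1, apoa4b.2 and apoa4b.3. apoa2 had been picked for its higher level in both pex5-/- libraries of these same data, so its difference between genotypes is a description with no test. RNA came from dissected livers of fasted larvae at 6 days post fertilization (dpf), in 2 pex5-/- samples (replicates 1 and 2, pex5 KO in the plots) and 2 WT samples (replicates 1 and 4). The pex5-/- larvae were homozygous for a small CRISPR/Cas9 deletion in the pex5 reading frame that descended from a single founder, and carried it in every cell, not in the liver only. Both genotypes were fasted, and how many livers were pooled in a sample, or whether the WT larvae were siblings, is not given in the sources used here. The level of pex5 itself was not analysed here, which leaves the genotype labels unchecked.

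A-type apolipoproteins are amphipathic proteins that coat lipoprotein particles. ApoA-I is the main protein of high-density lipoprotein (HDL) and the cofactor of the enzyme that esterifies HDL cholesterol, ApoA-II is the second protein of HDL in mammals, and ApoA-IV is made in mammals mainly by enterocytes, which load it on chylomicrons during fat absorption. The liver and the intestine are the main sources of these proteins in mammals. In zebrafish apoa1 and apoa4 are each present in several copies.

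The libraries were made by CEL-Seq2, which reads polyadenylated RNA near its 3′ end and tags molecules with random barcodes (UMIs) so that PCR copies count once. Levels of different genes can therefore be set side by side without division by length. Whether the annotated 3′ end of each gene covers its reads was not checked. The libraries held 1217737 to 1425834 deduplicated reads. Values are in TMM, read counts scaled by the authors with the trimmed mean of M-values, and a read was worth 0.691 to 0.785 TMM. RNA of the mitochondrial genome took 34.3% to 37.5% of the reads. The defining hepatocyte markers fabp10a, tfa, ambp and fgb had at least 1163 reads in every library. Differences between genotypes are on the log2(TMM + 1) scale, as pex5-/- mean minus WT mean. The added 1 makes differences of genes with few reads look smaller. Nothing in the labels shows that the samples of a genotype came from separate batches of larvae, so the errors cover the spread between these samples only.

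The 7 genes spanned a very wide range of levels. In all 4 libraries apoa2 was the second and apoa1b the third most abundant transcript, behind only a transcript of the mitochondrial genome. apoa4b.1 was 44th and 53rd in the pex5-/- libraries and 131st and 104th in the WT libraries. The other 4 genes had between 0 and 361 reads in a library. Set against each other by their means over all libraries, apoa2 stood above apoa1b, apoa1b above apoa4b.1, and apoa4b.1 above apoa4b.2, and these levels did not overlap in any library. apoa4b.2, apoa1a and apoa4b.3 were neighbours whose ranges over the 4 libraries overlapped, as did those of apoa4b.3 and apoa4a.

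**Figure D1:**
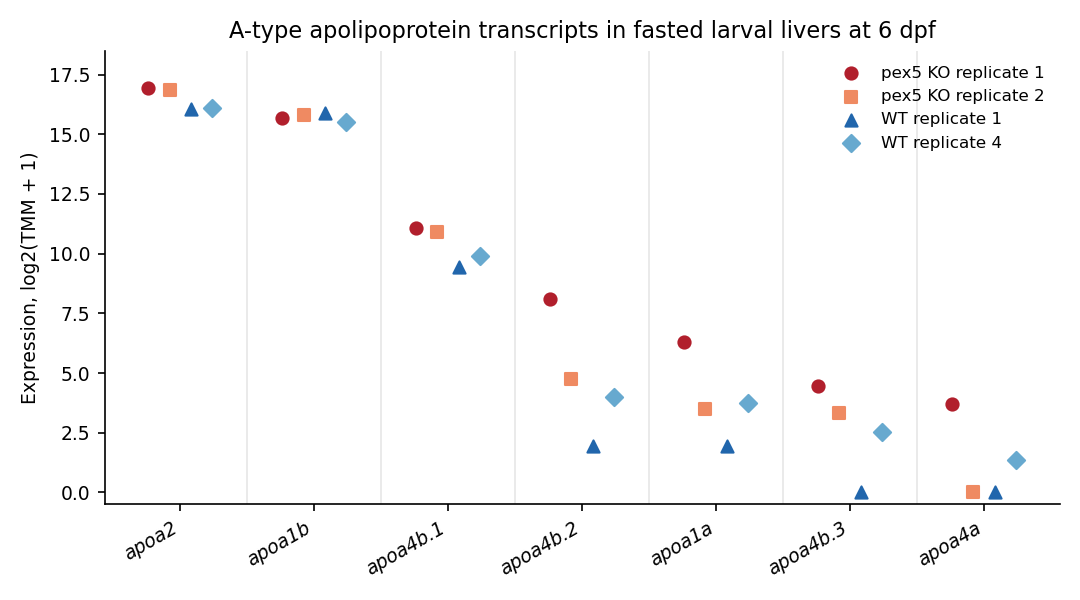
Level of each A-type apolipoprotein gene in each library, as log2(TMM + 1) on the vertical axis, with 1 symbol for each of the 2 pex5 KO and 2 WT libraries of fasted liver at 6 dpf. For apoa2, apoa4b.1, apoa4b.2 and apoa4b.3 both pex5 KO symbols lie above both WT symbols, whereas for apoa1b, apoa1a and apoa4a the genotypes overlap.

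The gene of ApoA-II was the member with the highest level and was higher in both pex5-/- libraries. apoa2 (ENSDARG00000015866, chromosome 16) had 164977 and 171889 reads in the pex5-/- libraries, against 95170 and 90495 reads in the WT libraries. This corresponded to 123993 and 118820 TMM in pex5-/- livers, against 67534 and 71063 TMM in WT livers. Both pex5-/- values were above both WT values, and the libraries of a genotype lay close together, with a step of -0.061 on the log2 scale from pex5-/- replicate 1 to replicate 2 and of 0.073 from WT replicate 1 to replicate 4. apoa2 averaged 121406 ± 3657 TMM in pex5-/- livers and 69299 ± 2495 TMM in WT livers (SD, n = 2 each), which gave a ratio of 1.75 and a log2 difference of 0.81. As a share of all reads, apoa2 took 11.7% and 12.1% in pex5-/- libraries, against 7.09% and 7.43% in WT libraries. Among reads of nuclear genes, the shares were 18.6% and 18.3% in pex5-/- livers and 11.3% and 11.8% in WT livers. In bulk RNA a difference in the number of hepatocytes and a difference in the RNA made per hepatocyte cannot be told apart.

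apoa1b, which encodes an ApoA-I, overlapped between the genotypes. apoa1b (ENSDARG00000101324, chromosome 15) had 69973 and 82621 reads in the pex5-/- libraries, against 84525 and 59199 reads in the WT libraries. The levels were 52590 and 57113 TMM in pex5-/- livers and 59980 and 46487 TMM in WT livers, so that the pex5-/- values lay between the WT values. The means of 54851 ± 3198 TMM in pex5-/- livers and 53234 ± 9541 TMM in WT livers (SD, n = 2 each) gave a log2 difference of 0.054 with a standard error of 0.15. The adjusted p was 1.00 (limma, Benjamini-Hochberg adjustment over all 3349 genes whose mean reached 10 TMM), which does not show that the levels are equal. Its sign was not stable, with -0.042 when the libraries were scaled to equal totals and -0.13 without WT replicate 4.

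Because these genes were measured in the same libraries, their ratio does not depend on how libraries are scaled. In pex5-/- livers there were 2.36 and 2.08 reads of apoa2 for every read of apoa1b, against 1.13 and 1.53 in WT livers. The ratios of the genotypes did not overlap, but these ratios and those below reuse the values by which apoa2 was picked. The ratios to apoa1b averaged 2.22 ± 0.20 in pex5-/- and 1.33 ± 0.28 in WT livers (SD, n = 2 each). Relative to fabp10a, the liver fatty acid binding protein gene, apoa2 had 31.4 and 24.4 reads per read in pex5-/- livers and 15.6 and 11.4 in WT livers, again without overlap. Relative to rbp4, the gene of the plasma retinol carrier, the distance was smaller, with 8.0 and 7.14 in pex5-/- livers and 5.02 and 6.84 in WT livers.

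**Figure D2:**
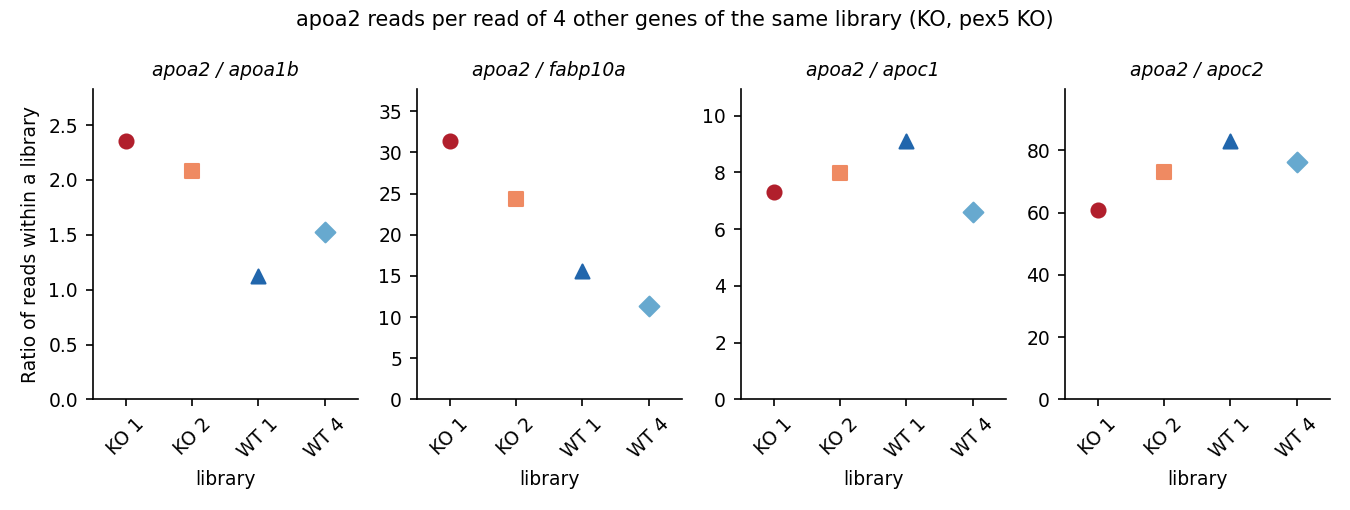
Reads of apoa2 per read of apoa1b, fabp10a, apoc1 and apoc2 in the same library, on linear axes that start at 0, with the pex5 KO libraries left of the WT libraries. The ratio to apoa1b was 2.36 and 2.08 in pex5 KO and 1.13 and 1.53 in WT libraries, while the ratio to apoc1 overlapped between the genotypes.

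Together the 7 genes supplied 238362 and 257378 reads in pex5-/- livers, against 180695 and 150961 reads in WT livers. They took 17.0% (95% Wilson interval 16.9% to 17.0%) and 18.1% (18.0% to 18.1%) of the reads in pex5-/- libraries, and 13.5% (13.4% to 13.5%) and 12.4% (12.3% to 12.5%) in WT libraries. These intervals, like those on reads below, cover counting error only. The summed level was 178532 ± 870 TMM in pex5-/- livers and 123384 ± 6844 TMM in WT livers (SD, n = 2 each), a ratio of 1.45. Nearly all of this distance was apoa2, since without it the sums were 55154 and 59095 TMM in pex5-/- livers, against 60690 and 47482 TMM in WT livers, and overlapped. Within the family, apoa2 made up 69.2% and 66.8% of the reads in pex5-/- livers and 52.7% and 59.9% in WT livers, whereas apoa1b made up 29.4% and 32.1% in pex5-/- livers and 46.8% and 39.2% in WT livers. The other 5 genes supplied 1.43% and 1.11% of the family's reads in pex5-/- livers, against 0.553% and 0.839% in WT livers.

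**Figure D3:**
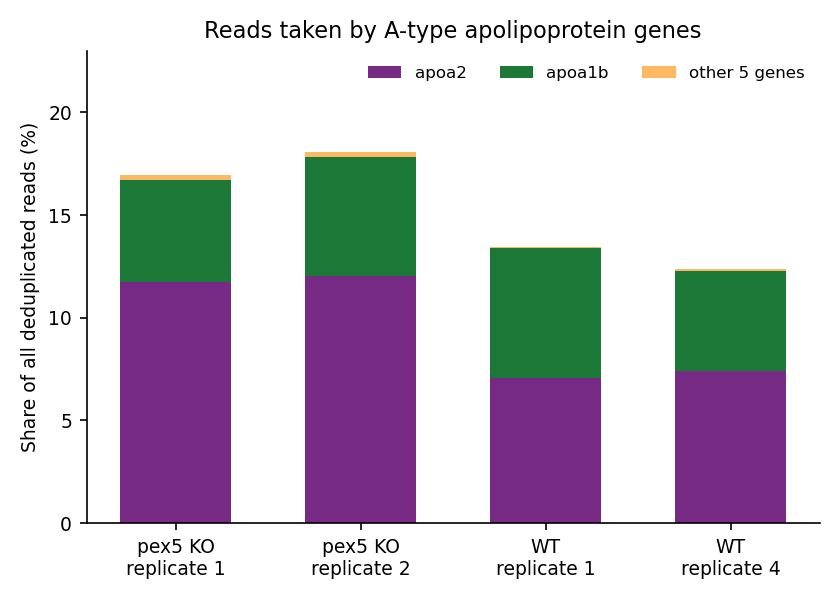
Share of all deduplicated reads of a library (%) taken by apoa2, apoa1b and the other 5 A-type apolipoprotein genes, stacked, in the 2 pex5 KO and the 2 WT libraries. The stacks reach 17.0% and 18.1% in pex5 KO and 13.5% and 12.4% in WT livers, with the apoa2 part at 11.7% and 12.1% against 7.09% and 7.43%.

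The most abundant ApoA-IV gene was higher in both pex5-/- libraries. apoa4b.1 (ENSDARG00000040298, chromosome 16) had 2903 and 2802 reads in the pex5-/- libraries, against 992 and 1224 reads in the WT libraries. Its level was 2182 and 1937 TMM in pex5-/- livers and 704 and 961 TMM in WT livers, without overlap. It averaged 2059 ± 173 TMM in pex5-/- livers and 833 ± 182 TMM in WT livers (SD, n = 2 each), a ratio of 2.47. The log2 difference was 1.32 with a standard error of 0.24, and leaving out any library gave 1.096 to 1.54. By p apoa4b.1 ranked seventh of the genes tested with limma, with an unadjusted p of 0.00242, but the adjusted p was 1.00 (Benjamini-Hochberg), and the difference did not pass the threshold of 0.05. For every read of apoa1b there were 0.0415 and 0.0339 reads of apoa4b.1 in pex5-/- livers, against 0.0117 and 0.0207 in WT livers. For every read of apoa4b.1 there were 56.8 and 61.3 reads of apoa2 in pex5-/- livers, against 95.9 and 73.9 in WT livers, so that within a library the level of apoa4b.1 stood farther above its WT level than that of apoa2 did.

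The remaining ApoA-IV genes and apoa1a had few reads and varied greatly between libraries of the same genotype. apoa4b.2 (ENSDARG00000020866, chromosome 16) had 361 and 38 reads in the pex5-/- libraries, against 4 and 19 reads in the WT libraries. This corresponded to 271 and 26.3 TMM in pex5-/- livers and 2.84 and 14.9 TMM in WT livers. The values did not overlap, but the pex5-/- libraries differed from each other more than pex5-/- replicate 2 differed from WT replicate 4. The log2 difference was 3.46 with a standard error of 1.25 (limma, Benjamini-Hochberg adjusted p = 1.00), and 1.80 without pex5-/- replicate 1. Its reads amounted to 12.4% and 1.36% of those of apoa4b.1 in pex5-/- livers, and to 0.403% and 1.55% in WT livers.

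A further row with the symbol apoa4b.2 in the deposited table (ENSDARG00000094929, chromosome 16) carries the name apoa4b.3 in the gene name table used here, and is given under that name. apoa4b.3 had 28 and 13 reads in the pex5-/- libraries, against 0 and 6 reads in the WT libraries, or 21.0 and 8.99 TMM in pex5-/- livers and 0 and 4.71 TMM in WT livers. The genotypes did not overlap, and the ratio of its shares of reads was 6.18 (95% exact interval 2.61 to 17.8). Its log2 difference of 2.63 became 1.38 to 3.89 when a library was left out. The apoa4b genes are copies of each other, and how reads that map to several copies were counted is not given in the sources used here, so the division of reads among apoa4b.1, apoa4b.2 and apoa4b.3 is uncertain.

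apoa1a (ENSDARG00000012076, chromosome 5), the other ApoA-I gene, had 104 and 15 reads in the pex5-/- libraries, against 4 and 16 reads in the WT libraries. Its level of 78.2 and 10.4 TMM in pex5-/- livers and 2.84 and 12.6 TMM in WT livers overlapped between the genotypes. The log2 difference was 2.06 with a standard error of 1.11 (limma, Benjamini-Hochberg adjusted p = 1.00), and 0.66 without pex5-/- replicate 1. apoa1b thus supplied almost all of the ApoA-I transcripts of these livers in every library. apoa4a (ENSDARG00000101160, chromosome 19) was the least abundant member, with 16 and 0 reads in the pex5-/- libraries, against 0 and 2 reads in the WT libraries. The ratio of its shares of reads was 7.24 (95% exact interval 1.70 to 64.9) and rested on pex5-/- replicate 1, without which the log2 difference was -0.68. A count of 0 allows up to 3 reads, which is 2.07 TMM for pex5-/- replicate 2 and 2.13 TMM for WT replicate 1.

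Of the 7 members, 5 had a mean of 10 TMM or more, and apoa4b.3 and apoa4a did not. apoa4b.2 and apoa1a passed only through the pex5-/- libraries, since their WT means were 8.88 and 7.70 TMM. For apoa1a it was pex5-/- replicate 1 that took the mean past 10 TMM. Of the 5 members tested, apoa2, apoa4b.1 and apoa4b.2 were higher in both pex5-/- libraries than in both WT libraries and 0 were lower, where 16.9% of all genes tested were higher and 13.5% lower in this way. The members were gathered with these values known, and nothing is read from their number. With limma 0% of the 3349 genes passed an adjusted p of 0.05. An unadjusted p under 0.05 (limma) was found for 121 genes, fewer than expected at this threshold if no gene differed. Of these, 85 were higher and 36 lower in pex5-/- livers. This split depended on the scaling, since with libraries scaled to equal totals 62 were higher and 59 lower. With 2 libraries a genotype, the smallest two-sided p of an exact permutation test would be 0.333 for any gene.

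Several of the members lie together. In the RefSeq gene order of the GRCz12tu assembly, 10 protein-coding genes follow each other on chromosome 16 from apoa4b.1 to apoc2, among them apoa4b.3, apoa4b.2, apoeb, apoc1, apoc4 and apoa2. pex5 itself is also on chromosome 16, with 227 protein-coding genes between it and this cluster. Sequence inherited with the pex5 deletion and the loss of pex5 cannot be told apart by this design. The part of either in the levels of the cluster genes was not tested. Of the 6 cluster genes whose mean reached 10 TMM, 5 were higher in both pex5-/- libraries, where 16.9% of all genes tested were, and apoeb was not. These 5 include apoa2, which was picked for this order, and apoa4b.1, which is a member. They also include apoa4b.2, which reached 10 TMM only through the pex5-/- libraries. The number of these 5 genes is thus a description and nothing is read from it. apoc1, which encodes a small apolipoprotein that exchanges between particles, had 22588 and 21577 reads in pex5-/- libraries, against 10439 and 13695 reads in WT libraries, with a log2 difference of 0.83 (standard error 0.22). apoc2, which encodes the activator of lipoprotein lipase, had 2706 and 2355 reads in pex5-/- libraries, against 1145 and 1186 reads in WT libraries, with a log2 difference of 1.06 (standard error 0.22). The adjusted p was 1.00 for both (limma, Benjamini-Hochberg). apoeb, which encodes an ApoE, had 1190 and 208 reads in pex5-/- libraries, against 77 and 307 reads in WT libraries, and overlapped.

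The nearest tested neighbours on either side of the cluster differed less. rps27.2, the nearest gene tested before apoa4b.1, had 538 and 561 reads in pex5-/- libraries and 465 and 503 reads in WT libraries, with a log2 difference of 0.13. rps19, the nearest gene tested after apoc2, had 814 and 871 reads in pex5-/- libraries and 707 and 747 reads in WT libraries, with a log2 difference of 0.16, both pex5-/- levels lying slightly above both WT levels. Of the 165 genes of chromosome 16 that were tested and lie outside the cluster, 17.6% were higher in both pex5-/- libraries and 14.5% were lower, near the shares over all genes. This order takes no account of the size of a difference. By unadjusted p (limma), tp53inp1 ranked 13th and gstk1 16th of all genes tested, both higher in pex5-/- livers, and rbp5 36th, lower. Further genes of chromosome 16 outside the cluster ranked 37th (decr1), 49th (txnipb) and 50th (dctn3), higher, and 42nd (c1r) and 43rd (c4b), lower. With these, all tested genes of chromosome 16 outside the cluster up to rank 50 are named. Such genes were 165 of the 3349 genes tested. The named genes were chosen after their values were seen. Whether low p-values gather on chromosome 16, which carries the pex5 deletion, was not tested. The apoa2 reads per read of apoc1 were 7.30 and 7.97 in pex5-/- livers and 9.12 and 6.61 in WT livers. They overlapped, which does not show that the ratio was the same in both genotypes. Those per read of apoc2 were 61.0 and 73.0 in pex5-/- livers and 83.1 and 76.3 in WT livers, lower in both pex5-/- libraries.

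**Figure D4:**
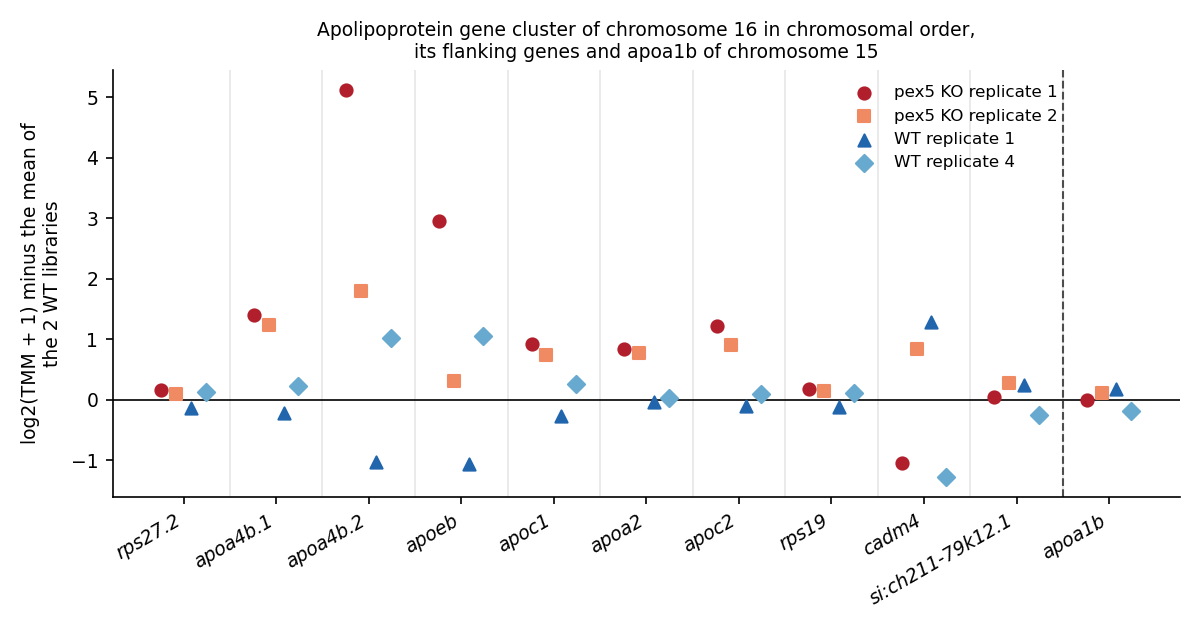
Genes of the chromosome 16 apolipoprotein cluster and its flanks whose mean reached 10 TMM, in RefSeq gene order, and apoa1b of chromosome 15 right of the dashed line. The vertical axis is log2(TMM + 1) minus the mean of the 2 WT libraries, and both pex5 KO symbols lie above both WT symbols for apoa4b.1, apoa4b.2, apoc1, apoa2 and apoc2, and by a small distance for rps19, but not for apoeb or apoa1b.

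Enterocyte markers were present in unequal amounts. The 27 enterocyte genes matched summed to 1758 and 350 TMM in pex5-/- livers, against 189 and 392 TMM in WT livers. The most abundant of them, rbp2b, which encodes a cellular retinol binding protein, did not follow the rest of the list and had 204 and 226 TMM in pex5-/- livers, against 93.0 and 95.0 TMM in WT livers. Without rbp2b and its paralogue rbp2a, a choice made after their values were seen, the other 25 genes summed to 1348 and 36.6 TMM in pex5-/- livers, against 33.4 and 175 TMM in WT livers. pex5-/- replicate 1 was the library far above the rest in both sums, with the highest value for 15 of 17 enterocyte genes that had at least 10 reads in all. The defining markers were low or absent elsewhere: vil1, the gene of the brush border protein villin, had 276 and 2 reads in pex5-/- libraries, against 4 and 19 reads in WT libraries. The peptide transporter gene slc15a1b had 64 and 0 reads in pex5-/- libraries, against 1 and 8 reads in WT libraries, cdx1b had 22 and 1 reads in pex5-/- libraries, against 0 and 3 reads in WT libraries, and fabp2 had 12 and 1 reads in pex5-/- libraries, against 1 and 6 reads in WT libraries. By the rule for named genes, the enterocyte genes of the highest level were rbp2b (272 and 327 reads in pex5-/- libraries, 131 and 121 in WT libraries), chia.1 (558 and 6 reads in pex5-/- libraries, 7 and 82 in WT libraries) and rbp2a (274 and 126 reads in pex5-/- libraries, 89 and 155 in WT libraries).

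Summed, apoa4b.2, apoa1a, apoa4b.3 and apoa4a had 509 and 66 reads in pex5-/- libraries, against 8 and 43 reads in WT libraries, and the 25 enterocyte genes without rbp2a and rbp2b had 1793 and 53 reads in pex5-/- libraries, against 47 and 223 reads in WT libraries. In both sums pex5-/- replicate 1 was the highest and WT replicate 1 the lowest library, while pex5-/- replicate 2 was above WT replicate 4 in the first and below it in the second. The part of enterocyte RNA in the values of these 4 genes was not tested. In the libraries other than pex5-/- replicate 1, apoa1a had 15 reads in pex5-/- replicate 2, against 4 and 16 reads in WT libraries, and apoa4b.2 had 38 reads in pex5-/- replicate 2, against 4 and 19 reads in WT libraries. Between the pex5-/- libraries, whose enterocyte sums were far apart, the log2 step from replicate 1 to replicate 2 was -0.061 for apoa2 and -0.17 for apoa4b.1. From WT replicate 1 to WT replicate 4, which had more enterocyte reads, the step was 0.073 for apoa2 and 0.45 for apoa4b.1. rbp2b was higher in both pex5-/- libraries, like apoa2 and apoa4b.1, and the part of enterocyte RNA in the values of apoa2 and apoa4b.1 was not tested either.

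**Figure D5:**
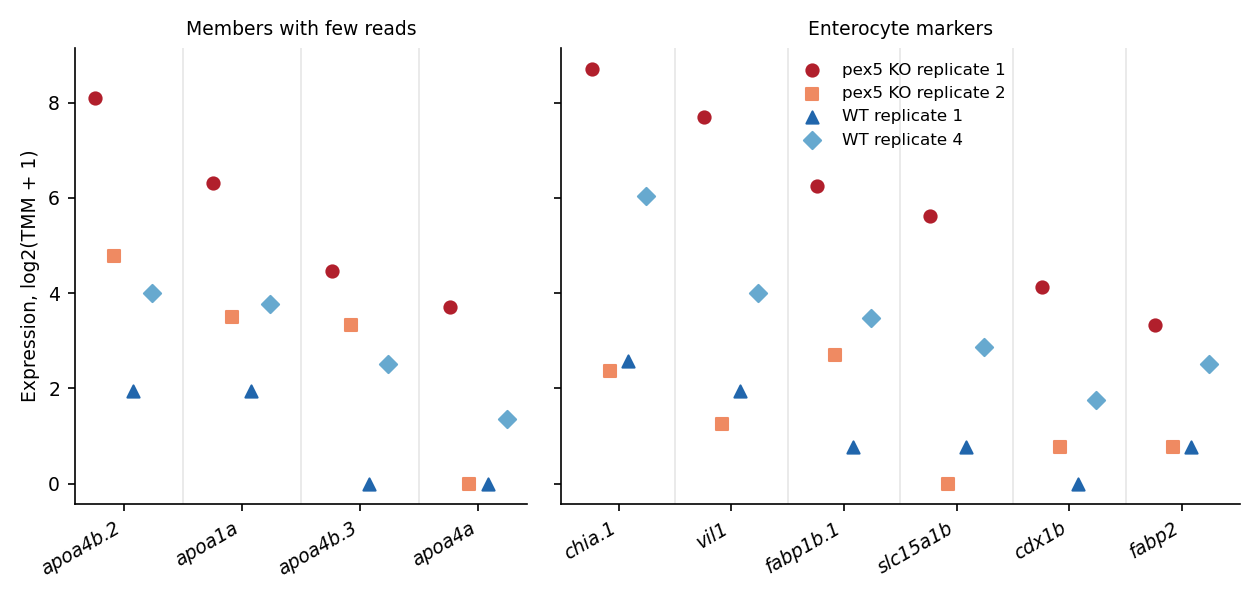
Level of the 4 A-type apolipoprotein genes with few reads (left) and of 6 enterocyte markers (right) in each library, as log2(TMM + 1), with the pex5 KO libraries left of the WT libraries. pex5 KO replicate 1 is the highest library for every gene drawn, and WT replicate 4 is above WT replicate 1 for every gene drawn. The 6 markers are a part of the 27 enterocyte genes matched. Among those not drawn that had at least 10 reads in all, rbp2b was highest in pex5 KO replicate 2 and cldn15b in WT replicate 1. Some genes with fewer reads, such as alpi.1 and agr2, were also highest in another library than pex5 KO replicate 1.

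Other tissues and cell types also differed between the libraries. Hepatocyte genes summed to 64781 and 56088 TMM in pex5-/- livers and 67531 and 58775 TMM in WT livers, and overlapped. Of 33 hepatocyte genes tested, 6 were higher and 10 lower in both pex5-/- libraries, where 16.9% of all genes tested were higher and 13.5% lower. Nothing is read from these counts. The median log2 difference of the hepatocyte genes was -0.22, against 0.0043 over all genes tested and 0.81 for apoa2. The 3 most abundant were fetub (21502 and 14108 reads in pex5-/- libraries, 26552 and 20936 in WT libraries), rbp4 (20630 and 24062 reads in pex5-/- libraries, 18960 and 13235 in WT libraries) and fabp10a (5253 and 7050 reads in pex5-/- libraries, 6083 and 7942 in WT libraries). Red blood cell genes summed to 2280 and 2017 TMM in pex5-/- livers, against 1235 and 546 TMM in WT livers, and heart muscle genes to 66.9 and 138 TMM in pex5-/- livers, against 250 and 504 TMM in WT livers. Red blood cell genes were thus higher in both pex5-/- libraries, like apoa2, and heart muscle genes lower, and their part in its level was not tested. Exocrine pancreas genes summed to 3173 and 2110 TMM in pex5-/- livers and 1880 and 4628 TMM in WT livers, and skeletal muscle genes to 1467 and 1793 TMM in pex5-/- livers and 581 and 4282 TMM in WT livers.

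Genes of the proteins that share lipoprotein particles with the members were counted next. Of 9 other apolipoprotein genes tested, 4 were higher in both pex5-/- libraries (apoc1, apom, apoc2 and apoea), where 16.9% of all genes tested were, 0 were lower, and the median log2 difference was 0.57. apoea reached 10 TMM only through pex5-/- replicate 1, with 88 and 11 reads in pex5-/- libraries, against 4 and 1 reads in WT libraries. apoc1 and apoc2 were already counted in the cluster. The list was chosen with earlier results of these data known, and nothing is read from the count of 4. Besides apoc1 and apoc2, the most abundant were apom, apobb.1 and apoba. apom, whose protein carries sphingosine 1-phosphate on HDL, had 4917 and 4290 reads in pex5-/- libraries, against 3648 and 2447 reads in WT libraries, with a log2 difference of 0.57. The ApoB genes, which encode the structural protein of very low-density lipoprotein, overlapped between the genotypes, with 2355 and 917 reads in pex5-/- libraries and 1088 and 1442 reads in WT libraries for apobb.1, and 1010 and 583 reads in pex5-/- libraries and 697 and 852 reads in WT libraries for apoba.

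In a list of genes of HDL and of lipoprotein turnover, which was drawn more widely than HDL itself, 12 were tested. Of these 0 were higher in both pex5-/- libraries and 5 were lower, where 13.5% of all genes tested were lower, and their median log2 difference was -0.24. This list too was chosen with earlier results known, and nothing is read from its counts. lpl, the gene of lipoprotein lipase, had 355 and 409 reads in pex5-/- libraries, against 553 and 482 reads in WT libraries, with a log2 difference of -0.49. cetp, whose protein exchanges cholesteryl ester for triglyceride between lipoproteins, had 140 and 120 reads in pex5-/- libraries, against 191 and 154 reads in WT libraries, with a log2 difference of -0.45. The others that were lower were prkcsh, which encodes a subunit of an endoplasmic reticulum glucosidase, scarb2a, which encodes a lysosomal membrane protein, and saa, the gene of an acute phase protein found on HDL, which had 0 and 2 reads in pex5-/- libraries, against 78 and 2 reads in WT libraries. prkcsh and scarb2a are thus not genes of HDL as such. saa reached 10 TMM only through WT replicate 1, and with 2 reads in pex5-/- replicate 2 as in WT replicate 4 its place among the lower genes came from the scaling alone. abca1a, the gene of the transporter that loads lipid on ApoA-I, had 88 and 90 reads in pex5-/- libraries, against 93 and 100 reads in WT libraries, and its levels overlapped. ldlra, which encodes the low-density lipoprotein receptor, had 528 and 755 reads in pex5-/- libraries and 543 and 585 reads in WT libraries, and mttp, whose protein loads lipid on ApoB, had 153 and 107 reads in pex5-/- libraries and 110 and 107 reads in WT libraries. lcat, the gene of the enzyme for which ApoA-I is the cofactor, was named after its values were seen and had 0 reads in all 4 libraries. By counting error alone this allows up to 2.36 TMM.

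Of 46 transcription factor genes whose products act on apolipoprotein genes in mammals, 18 reached a mean of 10 TMM. Of these 18, 2 were higher in both pex5-/- libraries (ppargc1b and nr2f6b) and 2 were lower (foxa2 and foxa3), with a median log2 difference of -0.24. Over all genes tested, 16.9% were higher and 13.5% lower in this way, and nothing is read from the counts of 2. The 5 most abundant, prox1a, foxa1, cebpb, nr1h5 and nr1d2a, all overlapped between the genotypes. prox1a had 140 and 174 reads in pex5-/- libraries and 165 and 218 reads in WT libraries, and foxa1 had 125 and 167 reads in pex5-/- libraries and 154 and 189 reads in WT libraries. hnf4a, the gene of a nuclear receptor that binds apolipoprotein promoters in mammals, had 1 and 2 reads in pex5-/- libraries and 2 and 2 reads in WT libraries, so that a difference was not detectable at this depth. creb3l3a had 17 and 9 reads in pex5-/- libraries, against 3 and 2 reads in WT libraries, and was under the filter. creb3l3b had 2 and 2 reads in pex5-/- libraries, against 0 and 1 reads in WT libraries, and creb3l3l had 0 and 0, against 1 and 0. hnf4a and these creb3l3 genes were named after their values were seen. In mice the counterpart of creb3l3a is a fasting-induced hepatic factor that binds the Apoa4 promoter. A part of creb3l3a in the levels of the members was not tested.

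Across the 4 libraries, the pattern of apoa2 was most like that of uraha, lgals2b, srd5a2a, cox6c and ugt1a1. Likeness was the root mean squared distance of log2(TMM + 1), centred on each gene's mean over the 4 libraries, among 620 genes that averaged 100 TMM or more. The distance to apoa2 was 0.066 for uraha, which had 373 and 419 reads in pex5-/- libraries, against 204 and 211 reads in WT libraries, and 0.088 for ugt1a1. These genes lie on other chromosomes than apoa2. The distance to apoa2 was 0.16 for apoc2, 0.17 for apoc1 and 0.29 for apoa4b.1. The pattern of apoa1b was most like that of gchfr, cebpd, mdh1aa, sec61b and hagh, at distances of 0.029 to 0.066, and all of these overlapped between the genotypes as apoa1b did. With 4 libraries many genes can share a pattern, and these distances are descriptions.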

How the data were processed

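CEL-Seq2 libraries of 2 fasted pex5-/- and 2 fasted WT liver samples at 6 dpf were analysed. The authors extracted UMIs (UMI-tools 1.1.1), trimmed reads (Trim Galore 0.6.7), mapped them to GRCz11 (HISAT2 2.2.1), counted them per gene (featureCounts 2.0.1), removed UMI duplicates and scaled the counts by TMM with edgeR, and the deposited values are log2(TMM + 1) of 16405 genes. The annotation release and the strand setting are not given in the sources used here. After the log2 was undone, 100% of values were a whole number of steps (tolerance 0.01), 1 step being a deduplicated read.

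limma 3.58.1 in R 4.3.3 (lmFit, eBayes with trend, no covariate) was run on log2(TMM + 1) of the 3349 genes whose mean reached 10 TMM. P-values were Benjamini-Hochberg adjusted (threshold 0.05), and the fit was tested on simulated data. RefSeq (GRCz12tu) served for gene order and names only. The members and gene lists were chosen with earlier results of these data known. Named are all members, the 5 most abundant genes of 3 lists (other apolipoproteins, HDL, transcription factors), the 3 most abundant hepatocyte and enterocyte genes, the 5 genes most like apoa2 and apoa1b, cluster neighbours, defining markers and genes counted as not overlapping. Alternatives covered the pseudocount, filter, scaling, trend, robust fitting, voom weights and each library left out.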

Additional observations from a re-analysis of the deposited data

How the results depend on the processing

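No paired analysis was run, because the labels name no pairs and the genotypes share only 1 replicate number. The number of genes called was 0 under every alternative of pseudocount, filter, scaling and model, and 0 to 12 when a library was left out, with 12 called without WT replicate 1 and 3 without WT replicate 4. Where a genotype was left with a single library, limma assumed it to vary like the other genotype. Scaling to equal totals moved the median log2 difference of all genes by -0.092. It gave 0.71 for apoa2 (0.81 as reported), 0.44 for the summed TMM of the 7 genes (0.53 as reported) and -0.042 for apoa1b (0.054 as reported). The sum without apoa2 differed by 0.089. A correction for UMI collisions, with UMIs of 10 bases, was added after seeing the data and gave 0.87 for apoa2. Leaving out 1 library gave 0.77 to 0.85 for apoa2, -0.13 to 0.24 for apoa1b, 1.096 to 1.54 for apoa4b.1, 1.80 to 5.12 for apoa4b.2, 0.66 to 3.46 for apoa1a, 1.38 to 3.89 for apoa4b.3, -0.68 to 3.02 for apoa4a and 0.48 to 0.59 for the sum. The number of the 7 genes with both pex5-/- libraries above both WT libraries was 4 under the 4 other scalings, where 16.9% of all genes tested had this order as reported. It was 4 to 6 when a library was left out, an alternative added after seeing the data. This order is easier to meet with a library fewer, and its share over all genes was not computed there. The 4 include apoa2, picked for this order, and apoa4b.3, under the filter, and nothing is read from these counts. For apoa4b.3 (2.63 as reported) a pseudocount of 0.1 gave 4.32 and one of 5 gave 1.45. The cause of these shifts was not tested. Over the alternatives the adjusted p of apoa4b.1 was 0.228 to 1.00. Of all values under the alternatives, 4 changed sign, 7 moved by more than 1 SD between replicates (for counts, by more than 1.5 times), and 110 did neither or, where tested, kept their direction and side of the threshold, whatever their size. Depth limits the 4 genes with few reads, for which 3 reads were 2.07 to 2.36 TMM.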
